A study of Mus musculus with 13 samples.

Results

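Tibialis anterior muscle of mdxTG mice was set against that of WT mice, using 4 mdxTG and 5 WT libraries of the 13 in the series and all 13846 genes of the authors' expression sheet. The mdxTG animals were mdx mice, a model of Duchenne muscular dystrophy with a mutated dystrophin gene, that also expressed a transgene for sarcospan (Sspn). The WT animals had neither the mutation nor the transgene, so the comparison takes in both, and their parts in any difference cannot be told apart. The sources used here give neither age, sex nor strain, nor the promoter of the transgene. Libraries carry identifiers that run in separate number series in mdxTG and WT; if these mark cohorts, cohort and genotype cannot be told apart. Whether every library is a separate animal is not stated, and p-values cover only the variation among these samples, which may be technical.

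Sarcospan spans the fibre membrane several times as a subunit of the dystrophin-glycoprotein complex. In this complex dystrophin binds the actin cytoskeleton inside the muscle fibre, dystroglycan binds laminin outside it, and the sarcoglycans and sarcospan hold the assembly together in the membrane. Without dystrophin, fibres tear during contraction, and cycles of necrosis, inflammation, regeneration and scarring follow. The tibialis anterior is a fast muscle of the lower leg, built mainly of fibres with the fast myosin heavy chains.

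The mdxTG libraries held 54.17 to 67.5 M reads and the WT libraries 53.26 to 68.44 M, of which 42.97 to 53.8 M in mdxTG and 41.74 to 53.87 M in WT were assigned to the listed genes. Levels are given as the authors' normalized CPM (read counts per standard library size), for which each library's size had been multiplied by a factor of 1.107 to 1.191 in mdxTG and 0.831 to 0.932 in WT. The level that 3 reads give was 0.0504 to 0.0625 normalized CPM in mdxTG and 0.0597 to 0.0818 in WT, for counting error only. The first principal component of the 9 libraries, with 74% of the variance, placed mdxTG at 40.3 to 49 and WT at -47 to -31. On the second, with 10.6%, WT replicates 1 and 2 stood apart at 20.2 and 23, against -22.2 to -13.3 for the other WT libraries; mdxTG replicate 1 lay at 16.1 and the other mdxTG libraries at -9.6 to 4.9. No 2 libraries of a group agreed within sampling noise, with a chi-square per degree of freedom of 24.2 to 181.5.

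Means below are ± SD over the 4 mdxTG and the 5 WT libraries, and log2 folds are mdxTG minus WT ± SE, on the scale of log2(normalized CPM + 0.5), from limma. Genes are said to have risen or fallen where the limma p-value, adjusted by Benjamini-Hochberg over 13831 genes tested, was below 0.05.

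The transgene and the mutation were examined first. Sspn (chromosome 6, 145931641 to 145965223, mm10) had 1702, 2006, 1660.4 and 1583 normalized CPM in mdxTG muscle, against 124, 101, 136, 119.6 and 112 in WT muscle. Every mdxTG library lay above every WT library, with means of 1738 ± 185 in mdxTG and 118 ± 13.3 in WT. The rise was 14.7-fold, a log2 fold of 3.87 ± 0.09 (limma adjusted p = 1.55e-12; exact two-sided permutation p = 0.0159, the smallest that 126 arrangements give in this test). No source used here names the species of the transgene, so the level takes in transgene transcripts only as far as they match mouse Sspn. Dmd (chromosome X, 82948870 to 85206141), the gene of dystrophin itself, had 61.0, 62.3, 53.9 and 59.5 normalized CPM in mdxTG muscle, against 244, 124, 246, 244 and 255 in WT muscle. The groups did not overlap, although WT replicate 2 lay below the other WT libraries, and Dmd fell, with a log2 fold of -1.86 ± 0.17 (limma adjusted p = 5.98e-07; exact two-sided permutation p = 0.0159). Utrn (chromosome 10, 12382188 to 12869365), which encodes utrophin, the relative that can take dystrophin's place, had 64.2, 104, 76.9 and 94.1 normalized CPM in mdxTG muscle, against 50.4, 43.1, 68.7, 75.5 and 97.0 in WT muscle. Its groups overlapped and it did not pass the threshold, with a log2 fold of 0.37 ± 0.22 (limma adjusted p = 0.17; exact two-sided permutation p = 0.222). Utrn passed without WT replicate 5 (log2 fold 0.52, adjusted p = 0.0463), and in plain CPM, where reads are divided by the unscaled library total (0.75, adjusted p = 0.0152).

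**Figure D1:**
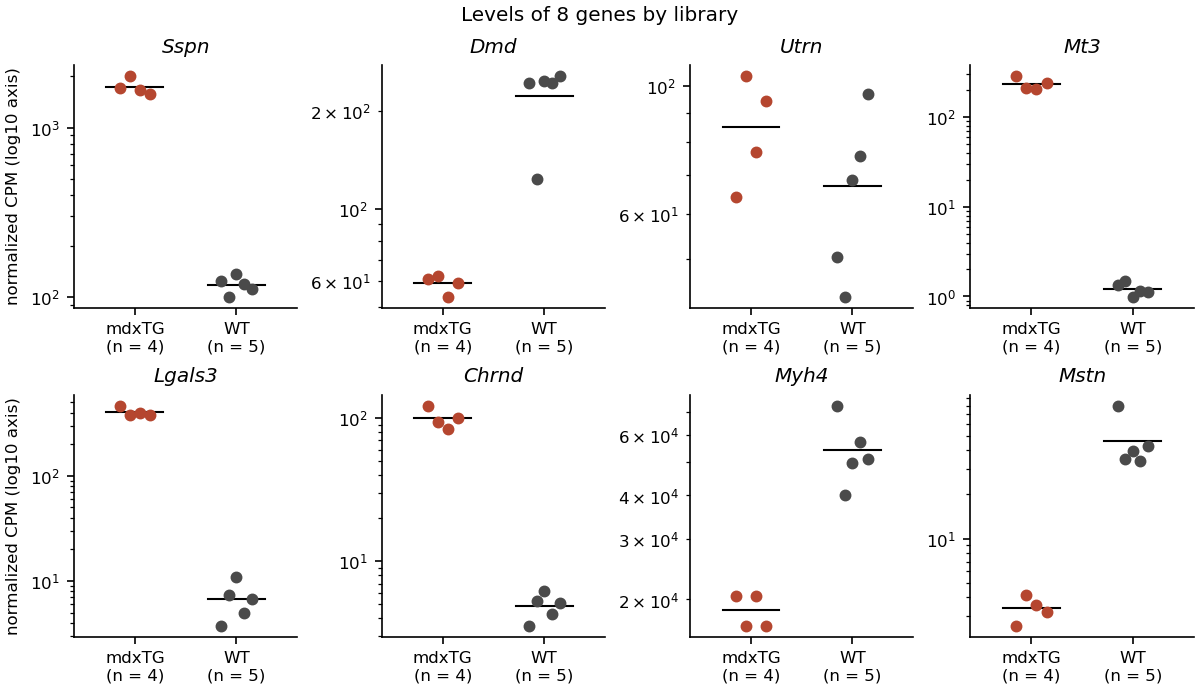
Normalized CPM (log10 axis) of 8 genes in each library, with mdxTG to the left of WT; points are libraries and bars are group means. Sspn, Mt3, Lgals3 and Chrnd lie higher in all 4 mdxTG libraries, Dmd, Mstn and Myh4 lie lower, and Utrn overlaps between the groups.

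Differences spread over much of the transcriptome. Of 13831 genes tested 7468 changed, 54% of them all, with 3967 risen (28.7%) and 3501 fallen (25.3%). Every count of list members below that uses the authors' scaling is to be read beside these 28.7% and 25.3%. List counts in plain CPM are to be read beside the 7916 of 13831 genes that rose and the 1181 that fell in plain CPM. The groups did not overlap for 5973 genes (43.2%). Larger changes leaned upward: 1040 genes rose and 443 fell by a log2 fold of more than 1, and 69 rose and 20 fell by more than 3. The authors' deposited table of this comparison, which holds genes with an adjusted p of at most 0.00992 and a log2 fold of at least 1 in size, lists 1306 genes higher and 551 lower in mdxTG, and 1849 of these were called here in the same direction. The direction of small changes rests on the authors' scaling. The median log2 fold of all genes was 0.02 as deposited and 0.36 in plain CPM, where 7916 genes rose and 1181 fell, so that 87% of calls were upward in place of 53.1%. All 3967 rises also passed upward in plain CPM, whereas 1181 of the 3501 falls passed downward and 66 passed upward. With median-ratio scaling 3844 rose and 3700 fell. The lists of cytosolic ribosomal proteins and proteasome subunits had median log2 folds of 0.04 and 0.02 as deposited and of 0.42 and 0.39 in plain CPM. Which scaling is right was not tested.

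**Figure D2:**
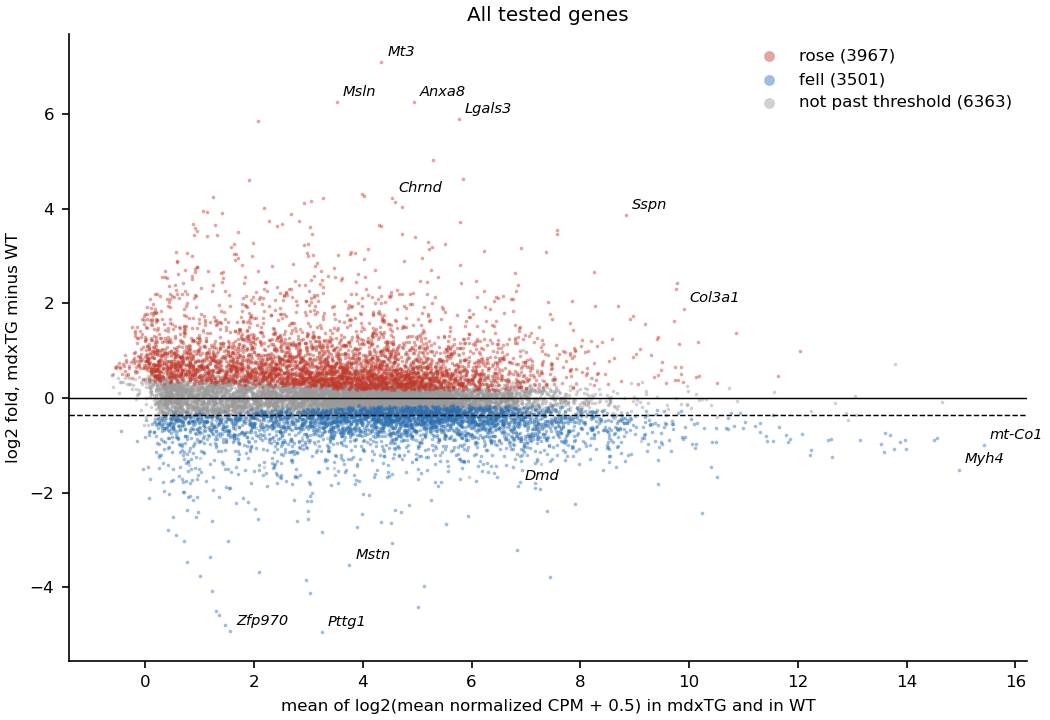
Log2 fold of mdxTG over WT against the mean log2 normalized CPM of both groups for 13831 genes; genes that rose are red, genes that fell are blue and the others grey. The dashed line at -0.36 marks about where a gene would lie that did not differ in plain CPM; Mt3, Anxa8 and Msln lie farthest up, and Pttg1 and Zfp970 farthest down.

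Both groups carried the defining genes of skeletal muscle: all 12 fibre markers were measured, with a summed level of 102860 to 123490 normalized CPM in mdxTG and 163610 to 220570 in WT. Of these markers 8 fell and 0 rose, beside 25.3% of all genes that fell; in plain CPM 5 fell and 2, Myh1 and Mylpf, rose. Fewer fibres and less RNA per fibre cannot be told apart in bulk tissue, here and in every list below.

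The list of the dystrophin-glycoprotein complex holds the transgene and the mutated gene, which differ between the groups by design. Of 16 members 4 rose, Sspn among them, 2 fell, Dmd among them, and 10 did not pass, against 28.7% and 25.3% of all genes. The share that rose was near that of all genes. The beta-2 syntrophin gene Sntb2, an adaptor that binds dystrophin and utrophin, had 28.5, 40.3, 32.8 and 35.4 normalized CPM in mdxTG muscle, against 15.02, 14.97, 20.1, 17.9 and 26.1 in WT muscle, a log2 fold of 0.87 ± 0.15. The groups did not overlap for Sntb2. The beta- and epsilon-sarcoglycan genes Sgcb and Sgce rose by 0.23 ± 0.07 and 0.41 ± 0.12. In plain CPM 11 members rose and 1, Dmd, fell, where 7916 of all 13831 genes rose and 1181 fell.

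Integrins are the other laminin receptors of the fibre. Of 24 integrin and laminin adhesion genes 13 rose and 6 fell as deposited, with 18 and 1 in plain CPM. The alpha-7 integrin gene Itga7, the main laminin-binding integrin of muscle, had 173, 176, 159 and 175 normalized CPM in mdxTG muscle, against 88.1, 90.7, 112, 97.1 and 102 in WT muscle, a log2 fold of 0.80 ± 0.08 (adjusted p = 1.21e-06). No WT library reached the mdxTG range. The alpha-V subunit gene Itgav rose by 1.35 ± 0.10, and Itga5, which pairs with the beta-1 subunit as a fibronectin receptor, by 1.16 ± 0.09. On the cytoplasmic side the actin linker vinculin (Vcl) rose by 0.90 ± 0.10 and the adaptor Lims1, a partner of integrin-linked kinase, by 1.14 ± 0.11.

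Genes that reseal or brace the membrane mostly rose. In the list of membrane repair and annexin genes 16 of 21 rose and 2 fell (18 and 1 in plain CPM), with a median log2 fold of 0.85. Anxa8, an annexin that binds membranes in the presence of calcium, had 334, 245, 210.5 and 260.5 normalized CPM in mdxTG muscle, against 1.93, 2.70, 2.47, 2.62 and 5.54 in WT muscle. This was 86.0-fold the WT mean, a log2 fold of 6.27 ± 0.25 (adjusted p = 1.45e-10), and the lowest mdxTG value was far above the highest WT value. Anxa1 and Anxa2, which gather at sites of membrane injury, rose by 2.48 ± 0.12 and 2.09 ± 0.12. Anxa4 rose by 2.45 ± 0.10 and the calpain protease gene Capn2 by 1.28 ± 0.06. The members that fell were the muscle calpain gene Capn3 and Anxa3, whose call was lost in plain CPM and without any 1 of WT replicates 2 and 5 and mdxTG replicates 2, 3 and 4 (limma adjusted p of 0.0523 to 0.0804).

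Most sarcomere genes of fast fibres fell. Of 14 members 10 fell and 0 rose, with a median log2 fold of -0.88; in plain CPM 10 fell and 2 rose. Myh4, the myosin heavy chain of the fastest fibres, had 20415, 16788, 20507 and 16794 normalized CPM in mdxTG muscle, against 72858, 39996, 49567, 57008 and 50951 in WT muscle. The mdxTG values lay below all WT values, at a log2 fold of -1.52 ± 0.20 (adjusted p = 2.33e-05). Myh4 took 1.93 to 2.28% of all gene reads in mdxTG and 3.42 to 6.05% in WT. The calcium buffer parvalbumin (Pvalb) averaged 4061 ± 549 in mdxTG and 9841 ± 2587 in WT, a log2 fold of -1.25 ± 0.18. The Z-disc actin crosslinker Actn3 (log2 fold -1.09 ± 0.13), the Z-disc protein gene Myoz1 (-0.92 ± 0.14) and the light chain kinase gene Mylk2 (-0.82 ± 0.10) fell. The 4 members that did not pass were Myh1, Mylpf, Myl1 and Acta1. Myh1, the heavy chain of the intermediate fast fibres, had 17256, 13816, 17627 and 21642 normalized CPM in mdxTG muscle, against 4924, 8794, 14918, 15841 and 12631 in WT muscle, and its log2 fold of 0.72 ± 0.29 had an adjusted p of 0.0505. Myh1 and Mylpf passed upward in plain CPM (log2 folds 1.10 and 0.42), and WT replicate 1 had the lowest Myh1 value.

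Few slow-fibre genes passed, and WT replicate 1 stood far above the other WT libraries for several of them. Of 14 members 2 rose and 1 fell, and the median turned from -0.12 as deposited to 0.26 in plain CPM. Myl3, a slow light chain, had 3.29, 7.56, 3.73 and 8.54 normalized CPM in mdxTG muscle, against 753, 50.0, 69.8, 53.4 and 44.3 in WT muscle, and it fell, with a log2 fold of -3.97 ± 0.65 (adjusted p = 1.45e-04). Without WT replicate 1 its log2 fold was -3.21 (adjusted p = 3.12e-07). Myl2 averaged 19.1 ± 9.52 in mdxTG and 196 ± 369 in WT and did not pass. Csrp3, the muscle LIM protein of the Z-disc that is induced by stretch, had 172, 159, 151 and 195 normalized CPM in mdxTG muscle, against 116, 31.5, 27.0, 23.7 and 36.5 in WT muscle, and rose by 2.11 ± 0.39. Actn2 rose by 0.48 ± 0.14, and Myoz2 had a log2 fold of 1.01 ± 0.43 (adjusted p = 0.0587). Myoz2 was at 131 to 167 in mdxTG. In WT it was at 302 in replicate 1 and at 43.3 to 69.6 in the other libraries.

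Embryonic and stress genes of the sarcomere moved the other way from the adult fast genes. Of 12 members 10 rose and 0 fell (11 and 0 in plain CPM), with a median log2 fold of 1.75. Ankrd1, a titin-binding protein of the I-band induced by stretch and damage, had 162, 118, 114 and 155 normalized CPM in mdxTG muscle, against 6.64, 14.3, 16.7, 17.1 and 18.1 in WT muscle, a log2 fold of 3.25 ± 0.30. Xirp1, an actin-binding protein of damaged sarcomeres, had 633, 799.6, 710.2 and 878 normalized CPM in mdxTG muscle, against 155, 67.3, 126, 142 and 125 in WT muscle, a log2 fold of 2.66 ± 0.21. Both genes lay higher in every mdxTG library. The perinatal myosin Myh8 averaged 48.6 ± 8.94 in mdxTG and 5.39 ± 3.08 in WT and the embryonic light chain Myl4 32.4 ± 3.51 in mdxTG and 9.46 ± 3.13 in WT. Myh8 rose by 3.16 ± 0.33 and Myl4 by 1.77 ± 0.24. Cardiac actin Actc1 rose by 1.95 ± 0.30, cardiac troponin T Tnnt2 by 1.74 ± 0.26, filamin C (Flnc) by 1.18 ± 0.19 and Xirp2 by 0.47 ± 0.13. Embryonic myosin Myh3 had 30.1, 26.3, 34.4 and 42.5 normalized CPM in mdxTG muscle, against 5.97, 3.27, 39.2, 3.05 and 3.03 in WT muscle, with overlapping groups, with WT replicate 3 above the rest of WT, and its rise of 2.34 ± 0.61 was not called by edgeR or DESeq2 on recovered reads (adjusted p = 0.0588 and adjusted p = 0.0679). Without WT replicate 3 the log2 fold of Myh3 was 2.99 (adjusted p = 1.11e-05). Actn1 rose by 0.31 ± 0.12 (adjusted p = 0.0469), but not without any 1 of WT replicates 1, 2 and 4 and mdxTG replicates 2, 3 and 4 (limma adjusted p of 0.0766 to 0.153), while Nrap (-0.05 ± 0.16) and Ankrd2 (0.44 ± 0.35) did not pass. Ankrd2 was at 72.9 to 87.9 in mdxTG. In WT it was at 168 in replicate 1 and at 38.9 to 61.4 in the other libraries.

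With the authors' scaling, the machinery that releases and takes up calcium was lower for the most part. Of 18 members 12 fell and 4 rose as deposited, whereas 5 fell and 5 rose in plain CPM, where the median turned from -0.33 to 0.04. Junctophilin-1 (Jph1), which ties the sarcoplasmic reticulum to the transverse tubule, had 193, 189, 177 and 184 normalized CPM in mdxTG muscle, against 464, 385, 496, 463 and 462 in WT muscle, a log2 fold of -1.28 ± 0.08 (adjusted p = 1.68e-08). The calcium store protein Casq1 fell, with a log2 fold of -0.81 ± 0.11, as did Stac3, a part of the voltage sensor complex, with -0.85 ± 0.08. All mdxTG values of these genes lay below the WT values. The members that rose were Cacnb1, a subunit of the voltage sensor (0.90 ± 0.07), the store-operated channel gene Orai1 (1.04 ± 0.08), Casq2 and Sln, but Sln was not called by DESeq2 on recovered reads (adjusted p = 0.0561).

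Genes of the acetylcholine receptor, the ion channel of the neuromuscular junction, mostly rose. Of 14 junction genes 11 rose and 1 fell, with a median log2 fold of 1.03 (13 and 0 in plain CPM). The delta subunit gene Chrnd (chromosome 1, 87190607 to 87200070) had 122, 94.0, 84.3 and 101 normalized CPM in mdxTG muscle, against 3.55, 5.32, 6.23, 4.27 and 5.08 in WT muscle, a rise of 20.5-fold and a log2 fold of 4.24 ± 0.17 (adjusted p = 1.48e-10). Every mdxTG library exceeded every WT library by a wide margin. The alpha and beta subunit genes Chrna1 and Chrnb1 rose by 1.19 ± 0.13 and 1.05 ± 0.10. The fetal gamma subunit gene Chrng averaged 2.54 ± 0.550 in mdxTG and 0.787 ± 1.21 in WT and rose by 1.59 ± 0.45, whereas the gene of the adult epsilon subunit, Chrne, was the member that fell (-0.41 ± 0.12), a call lost in plain CPM. In DESeq2 on recovered reads Chrng did not pass (adjusted p = 0.0882). For Chrng WT replicate 3 stood above the rest of WT, and without WT replicate 3 its log2 fold was 2.04 (adjusted p = 8.04e-05). The neural cell adhesion gene Ncam1, which denervated and regenerating fibres express, had 112, 98.4, 82.8 and 108 normalized CPM in mdxTG muscle, against 11.6, 6.76, 11.3, 7.71 and 8.26 in WT muscle, a log2 fold of 3.41 ± 0.21. Colq, the collagen tail that anchors acetylcholinesterase, rose by 2.17 ± 0.14.

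The 250 bases before the RefSeq gene start (GRCm38.p6) are shown for 2 receptor subunits that rose, because muscle regulators of the MyoD family bind the E-box CAGCTG, given here in capitals. The RefSeq promoter table used here had entries for Chrna1, Chrnb1, Chrng and Chrne. Chrna1 and Chrng each held 2 matches, Chrne 1 and Chrnb1 0, and 1.16% of 27025 promoters held at least 2 and 12.77% at least 1 (the motif reads alike on both strands). A match describes these letters only.
Chrna1 (chr2:73580339-73580588, minus strand): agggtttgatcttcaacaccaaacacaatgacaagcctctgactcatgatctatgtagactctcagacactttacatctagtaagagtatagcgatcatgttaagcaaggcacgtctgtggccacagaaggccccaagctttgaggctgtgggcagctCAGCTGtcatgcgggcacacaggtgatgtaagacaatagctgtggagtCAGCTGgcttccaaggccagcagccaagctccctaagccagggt
Chrng (chr1:87205561-87205810, plus strand): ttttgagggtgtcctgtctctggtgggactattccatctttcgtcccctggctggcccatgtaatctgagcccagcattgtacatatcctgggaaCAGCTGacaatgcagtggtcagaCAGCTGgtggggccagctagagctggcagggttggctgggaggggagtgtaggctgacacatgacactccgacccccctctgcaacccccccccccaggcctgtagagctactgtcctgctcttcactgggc

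Of 18 measured satellite cell and myogenesis genes 8 rose and 1, Chrdl2, fell, while 9, Pax7, Myf5 and Myod1 among them, did not pass (13 rose and 1 fell in plain CPM). With the authors' scaling 28.7% of all genes tested rose and 25.3% fell, and in plain CPM 7916 of 13831 rose and 1181 fell. Myogenin (Myog), the factor that starts terminal differentiation, had 16.5, 15.8, 12.4 and 14.7 normalized CPM in mdxTG muscle, against 3.98, 2.21, 9.94, 3.18 and 2.35 in WT muscle, a log2 fold of 1.86 ± 0.32. The fusion gene Mymk averaged 4.85 ± 0.901 in mdxTG and 0.858 ± 1.65 in WT and rose by 2.54 ± 0.48. The groups did not overlap for either gene, although WT replicate 3 stood above the other WT libraries in both. The non-coding RNA gene H19, an imprinted transcript of growing muscle, had 2229, 1875, 1770 and 2132 normalized CPM in mdxTG muscle, against 552, 292, 473, 339 and 264 in WT muscle, a log2 fold of 2.43 ± 0.19 (adjusted p = 1.23e-07). Cdh15, the cadherin of satellite cells, rose by 0.51 ± 0.09. Pax7, which marks satellite cells and was named after its value was seen, averaged 4.16 ± 1.11 in mdxTG and 3.35 ± 0.693 in WT and did not pass (log2 fold 0.27 ± 0.16, adjusted p = 0.177).

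Cell cycle genes rose in 17 of 20 cases and fell in 2 (18 and 1 in plain CPM). The proliferation marker Mki67 had 4.62, 5.77, 8.13 and 7.64 normalized CPM in mdxTG muscle, against 0.966, 2.07, 3.05, 1.38 and 1.25 in WT muscle, a log2 fold of 1.69 ± 0.25. The topoisomerase Top2a rose by 1.70 ± 0.24 and cyclin E1 (Ccne1) by 1.32 ± 0.17. All 3 lay higher in every mdxTG library. The cell cycle inhibitor Cdkn1a (p21) had 137, 111, 88.5 and 102 normalized CPM in mdxTG muscle, against 12.9, 13.9, 13.9, 8.56 and 10.2 in WT muscle and rose by 3.16 ± 0.17 (adjusted p = 1.95e-09). The largest change of the list was a fall, and Mcm2 also fell, though not in plain CPM. Pttg1 (chromosome 11, 43420250 to 43426251), which encodes securin, the guard of sister chromatid separation, had 0.854, 1.11, 1.51 and 1.32 normalized CPM in mdxTG muscle, against 51.9, 65.8, 48.0, 49.4 and 45.5 in WT muscle. Its log2 fold was -4.95 ± 0.13 (adjusted p = 6.49e-12).

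Macrophage genes rose in 19 of 22 cases and 0 fell, with a median log2 fold of 1.34 and a summed level of 1192 to 1375 normalized CPM in mdxTG and 149 to 445 in WT. Galectin-3 (Lgals3), a sugar-binding protein of macrophages and injured fibres, had 467, 383, 399.7 and 384 normalized CPM in mdxTG muscle, against 3.74, 7.31, 10.8, 4.93 and 6.71 in WT muscle. This was 61.0-fold the WT mean, a log2 fold of 5.90 ± 0.21 (adjusted p = 5.93e-11). The lysosomal glycoprotein gene Cd68 had 105, 95.8, 92.6 and 97.6 normalized CPM in mdxTG muscle, against 2.73, 4.17, 7.63, 5.99 and 6.23 in WT muscle, a log2 fold of 4.14 ± 0.22. Both genes were higher in every mdxTG library than in any WT library. The lipid receptor Trem2 rose by 2.26 ± 0.19, the chemokine receptor Cx3cr1 by 2.82 ± 0.27 and Gpnmb by 2.56 ± 0.31. The 3 members that did not pass were Mrc1 (0.71 ± 0.35), the resident macrophage receptor Cd163 (0.01 ± 0.42) and Spp1 (0.63 ± 0.33).

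Chemokines, complement and antigen presentation followed in part. Of 20 chemokine and complement genes 11 rose and 1, the eosinophil chemokine Ccl11, fell (15 and 0 in plain CPM). The interferon-induced chemokine gene Cxcl10 averaged 4.58 ± 1.20 in mdxTG and 0.239 ± 0.115 in WT, a log2 fold of 2.77 ± 0.17. With at most 0.358 in WT libraries, Cxcl10 met the filter of 0.5 normalized CPM only outside WT, which favours a rise in such a gene. Cxcl16 rose by 1.70 ± 0.20, Cxcl14 by 0.68 ± 0.14, the receptor of complement fragment C3a, C3ar1, by 1.42 ± 0.30 and the complement protease C1s1 by 0.75 ± 0.16. Among interferon and antigen presentation genes 9 of 23 rose and 0 fell, beside 28.7% of all genes that rose, and 19 rose in plain CPM. The rises took in B2m, the light chain of class I molecules (0.77 ± 0.16), Tapbp (0.58 ± 0.11), the class II chain H2-Eb1 (1.26 ± 0.28) and the interferon-induced genes Ifit1 (0.64 ± 0.14) and Mx1 (0.63 ± 0.15). In the list of T, B and NK cell markers 2 of 11 genes were listed, Cd4 and Ccl5, and both rose. WT libraries held at most 0.556 of Cd4 and 0.46 of Ccl5. Both genes thus met the filter of 0.5 normalized CPM in at least 4 libraries mainly outside WT. The filter favours a rise in such genes, and their calls do not speak for these cell types. Cd4 averaged 1.12 ± 0.131 in mdxTG and 0.323 ± 0.220 in WT and Ccl5 1.16 ± 0.350 in mdxTG and 0.205 ± 0.148 in WT, with summed levels of 1.8 to 2.76 in mdxTG and 0.193 to 0.689 in WT. Of 9 neutrophil and mast cell genes 4, the mast cell genes Cma1, Mcpt4, Cpa3 and Kit, were tested and 0 passed, with summed levels of 17.2 to 37.6 in mdxTG and 11.2 to 35.8 in WT. The neutrophil genes S100a8, S100a9, Ngp and Mpo did not pass the filter on low values and were highest in 1 library of each group, mdxTG replicate 3 and WT replicate 2; they were named after their values were seen. S100a9, a calcium-binding protein of neutrophils, had 0.125, 0.201, 5.71 and 0.375 normalized CPM in mdxTG muscle, against 0.242, 3.57, 0.736, 0.371 and 0.458 in WT muscle. Of 7 blood genes 5 were measured and 0 passed in either direction, with summed levels of 59.6 to 146 in mdxTG and 78.3 to 184 in WT.

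**Figure D3:**
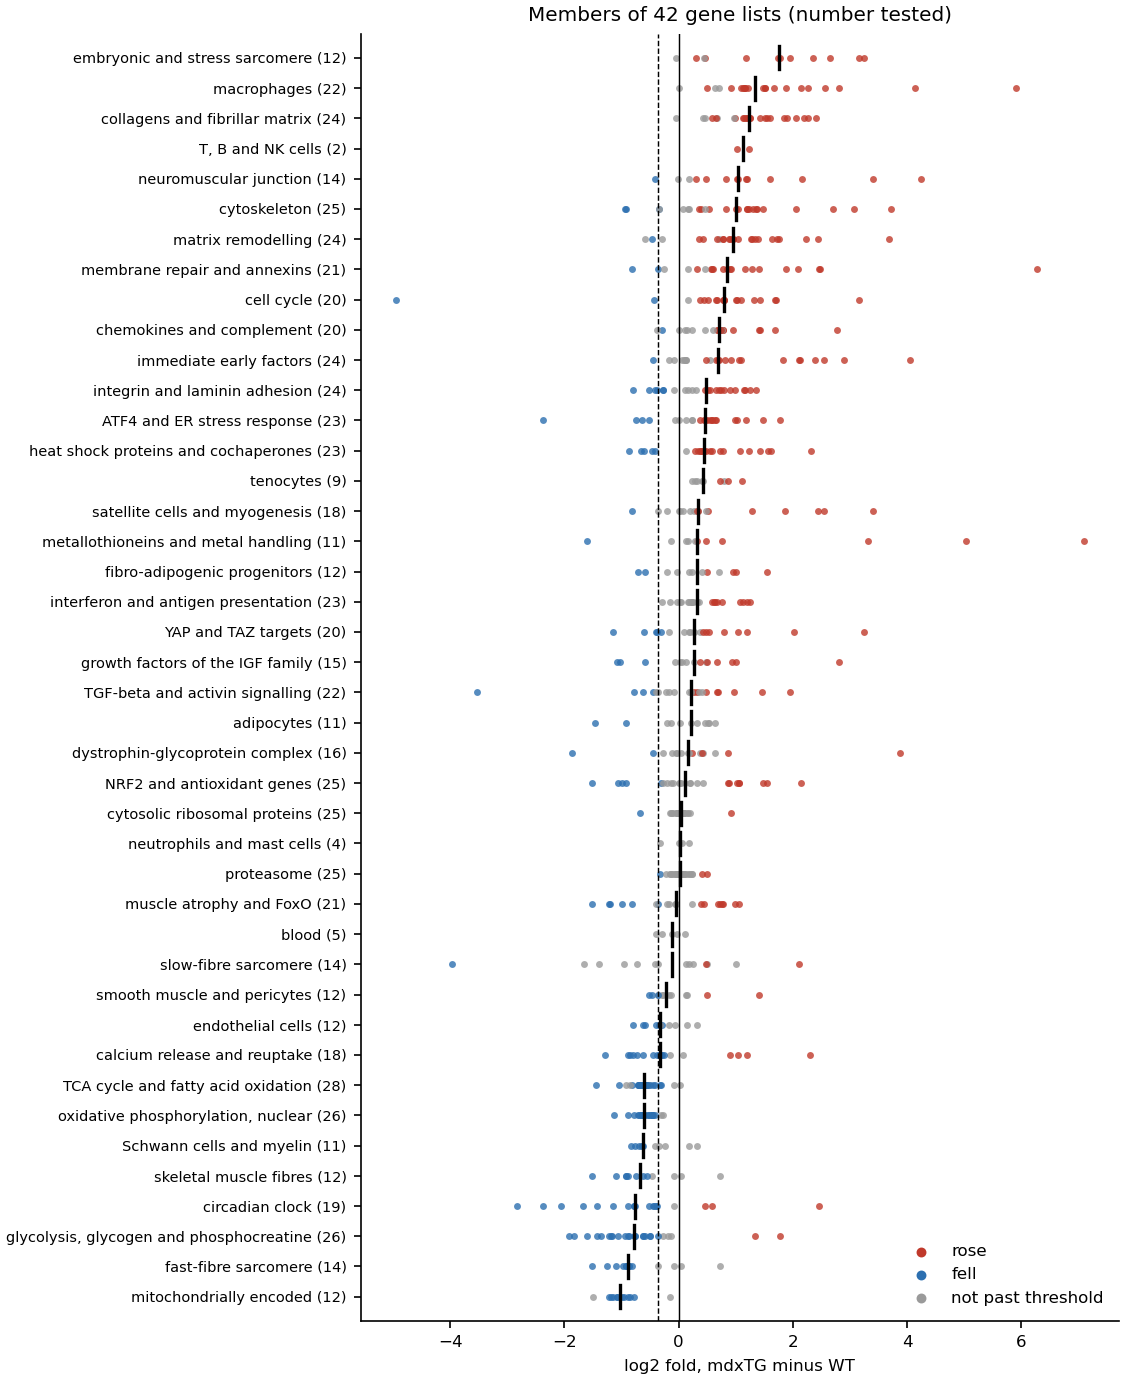
Log2 fold of mdxTG over WT of the tested members of each gene list; red points rose, blue points fell, grey points did not pass, and black ticks are list medians. The solid line marks 0 and the dashed line at -0.36 marks about where a gene that did not differ in plain CPM would lie. Embryonic sarcomere, macrophage and collagen genes lie mainly to the right, and fast-fibre, oxidative and mitochondrially encoded genes to the left.

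Collagens and the proteins around them rose. Of 24 collagen and fibrillar matrix genes 19 rose and 0 fell (21 and 0 in plain CPM), with a median log2 fold of 1.23. The fibrillar collagen gene Col3a1 had 1386, 2164, 1499 and 2186 normalized CPM in mdxTG muscle, against 284, 365, 634, 623 and 602 in WT muscle, a log2 fold of 1.89 ± 0.25. The proteoglycan lumican (Lum), which spaces collagen fibrils, had 247, 301, 252 and 239.6 normalized CPM in mdxTG muscle, against 29.4, 47.3, 63.2, 55.4 and 56.0 in WT muscle, a log2 fold of 2.40 ± 0.18 (adjusted p = 6.50e-08). Neither gene's groups overlapped. Col5a3 rose by 1.84 ± 0.11, the matricellular protein periostin (Postn) by 2.26 ± 0.23 and the basement membrane zone collagen Col15a1 by 1.54 ± 0.21. Matrix remodelling genes, among them proteases, their inhibitors and crosslinking enzymes, rose in 20 of 24 cases and fell in 1, the inhibitor Timp3 (21 and 0 in plain CPM). The protease inhibitor Timp1 had 19.6, 17.3, 18.1 and 24.6 normalized CPM in mdxTG muscle, against 1.01, 1.28, 1.24, 0.768 and 1.16 in WT muscle, a log2 fold of 3.68 ± 0.24. The membrane-bound protease Mmp14 rose by 2.23 ± 0.24, Mmp3 by 2.44 ± 0.29, Mmp19 by 1.76 ± 0.19 and the lysyl oxidase Loxl1 by 1.27 ± 0.15.

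Among markers of other cell types, those of fibro-adipogenic progenitors rose in 4 of 12 cases and fell in 2, beside 28.7% and 25.3% of all genes. In plain CPM 8 of these markers rose and 0 fell, beside 7916 and 1181 of all 13831 genes. The summed levels of these markers were 1510.5 to 2391 in mdxTG and 1255 to 2428 in WT. Pdgfra, their defining receptor, averaged 87.4 ± 22.6 in mdxTG and 44.1 ± 14.2 in WT and rose by 1.00 ± 0.24; Col15a1, Mfap5 (0.95 ± 0.13) and Cd34 (0.49 ± 0.13) rose, while Ly6a (-0.58 ± 0.19) and Ly6c1 (-0.72 ± 0.15) fell, neither of them in plain CPM, and Ly6a not without mdxTG replicate 1 (adjusted p = 0.0531). Pi16, Dpp4, Gsn, Smoc2, Lox and Tcf7l2 did not pass, of which Pi16, Smoc2, Lox and Tcf7l2 passed upward in plain CPM. Tenocyte markers varied strongly between libraries, with summed levels of 495 to 1121 in mdxTG and 161 to 1046 in WT. Scx, the tendon transcription factor, rose by 0.72 ± 0.16; Thbs4 (1.10 ± 0.40) and Ptx4 (0.86 ± 0.29) also passed, but not without WT replicates 1 and 2 (adjusted p = 0.15 and adjusted p = 0.129) nor without mdxTG replicate 2 or 4 alone (limma adjusted p of 0.0542 to 0.0941), and Tnmd, Mkx, Comp, Fmod, Chad and Kera did not. The part of these cell types in the matrix changes was not tested.

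Among vessel, nerve and fat markers 2 pericyte genes rose with the authors' scaling and the others fell or did not pass. With that scaling the shares of all genes were 28.7% risen and 25.3% fallen, and in plain CPM 7916 of 13831 genes rose and 1181 fell. Of 12 endothelial markers 7 fell and 0 rose as deposited, but 3 rose and 0 fell in plain CPM, and summed levels of 531 to 683 in mdxTG overlapped 621 to 913 in WT. The vascular receptor Flt1 (-0.80 ± 0.19) and Vwf (-0.63 ± 0.17) fell without overlap, and Pecam1 (-0.32 ± 0.11), Tek (-0.35 ± 0.13), Tie1 (-0.28 ± 0.12), Esam (-0.39 ± 0.12) and Ptprb (-0.60 ± 0.18) with overlap, whereas Cdh5, Kdr, Egfl7, Cldn5 and Emcn did not pass. The calls of Pecam1, Tek and Tie1 were lost without WT replicate 4 or 5 or mdxTG replicate 1 alone (limma adjusted p of 0.0528 to 0.132). Of 12 smooth muscle and pericyte markers 2 rose, Cspg4 (1.40 ± 0.12) and Pdgfrb (0.50 ± 0.16), and 3 fell, Myh11 (-0.46 ± 0.10), Tagln (-0.52 ± 0.15) and Abcc9 (-0.35 ± 0.14); in plain CPM 4 rose and 0 fell. Acta2, Cnn1, Smtn, Rgs5, Notch3, Mcam and Kcnj8 did not pass. Pdgfrb lost its call without mdxTG replicate 2 or 4 (limma adjusted p of 0.0596 and 0.064), and Abcc9 without any 1 library but WT replicate 2 and mdxTG replicate 2 (0.0743 to 0.108). Of 11 measured Schwann cell genes 5 fell and 0 rose as deposited and 2 and 2 in plain CPM, with summed levels of 149 to 202 in mdxTG and 169 to 419.7 in WT. Sox10, the transcription factor of these cells (log2 fold -0.63 ± 0.12), and Cdh19 (-0.84 ± 0.14) fell. Prx (-0.65 ± 0.20) and S100b (-0.69 ± 0.21) also fell, but not without WT replicates 1 and 2 (adjusted p = 0.0764 and adjusted p = 0.083), and Mbp, Pmp22, Mag, Ncmap and Cnp did not pass. Of 11 measured adipocyte genes 2 fell, Plin4 (-0.92 ± 0.14) and the carbonic anhydrase Car3 (-1.46 ± 0.16), both of which muscle fibres also express, with 4 risen and 2 fallen in plain CPM, while the defining genes Adipoq (0.51 ± 0.28) and Plin1 (0.64 ± 0.31) did not pass, nor did Cidec, Lep, Retn, Pck1, Cfd, Lipe and Fabp4.

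The cytoskeleton list rose in 17 of 25 cases and fell in 3 (21 and 2 in plain CPM), with a median log2 fold of 1.01. The tubulin Tubb6, a microtubule subunit scarce in resting fibres, had 214, 183, 179.7 and 203 normalized CPM in mdxTG muscle, against 13.7, 10.8, 24.3, 12.5 and 13.2 in WT muscle, a log2 fold of 3.72 ± 0.19 (adjusted p = 1.85e-09). Nestin (Nes), the intermediate filament of young fibres and of the fibre's junctional ends, had 622, 453, 354 and 509 normalized CPM in mdxTG muscle, against 54.2, 51.1, 65.6, 53.2 and 55.8 in WT muscle, a log2 fold of 3.08 ± 0.15. Both were higher in every mdxTG library. Tubb5 rose by 2.05 ± 0.10, lamin A/C (Lmna) by 1.47 ± 0.07 and the keratin Krt18, at 3.79 ± 1.16 in mdxTG and 0.144 ± 0.0646 in WT, by 2.70 ± 0.17. The 3 members that fell were Tuba4a, Tuba8 and Synm, and Tuba4a lost its call in plain CPM and without any 1 of WT replicates 1 and 2 and mdxTG replicates 2 and 4 (limma adjusted p of 0.0537 to 0.109).

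In the lists of growth and mechanical signalling the counts with the authors' scaling stand beside 28.7% of all genes that rose and 25.3% that fell. Those in plain CPM stand beside 7916 of 13831 genes that rose and 1181 that fell. In the TGF-beta and activin list 8 of 22 rose and 4, Mstn, Bmp4, Smad3 and Smad7, fell (13 and 2 in plain CPM, where the calls of Smad3 and Smad7 were lost). Myostatin (Mstn; chromosome 1, 53061640 to 53068079), the inhibitor of muscle growth, had 2.56, 4.13, 3.56 and 3.20 normalized CPM in mdxTG muscle, against 80.5, 35.0, 39.8, 33.7 and 42.7 in WT muscle, and fell, with a log2 fold of -3.54 ± 0.20 (adjusted p = 5.17e-09). Its antagonist follistatin (Fst) had 10.97, 11.9, 11.4 and 10.8 normalized CPM in mdxTG muscle, against 2.92, 3.84, 3.63, 3.34 and 5.60 in WT muscle, a log2 fold of 1.46 ± 0.13. Tgfb1, the ligand tied to fibrosis, averaged 26.9 ± 2.65 in mdxTG and 6.63 ± 1.24 in WT and rose by 1.96 ± 0.14, the latent TGF-beta binding protein gene Ltbp3 rose by 0.68 ± 0.09, and Bmp4 fell (-0.78 ± 0.12). YAP and TAZ are coactivators that answer to tension; of 20 measured targets and partners 8 rose and 5 fell, as against 14 and 1 in plain CPM. The DNA-binding partner Tead4 had 28.5, 29.1, 28.3 and 32.8 normalized CPM in mdxTG muscle, against 8.11, 4.85, 7.63, 7.42 and 7.31 in WT muscle, a log2 fold of 2.01 ± 0.12, and TAZ itself (Wwtr1) rose by 1.20 ± 0.09, Dock5 by 1.05 ± 0.13 and Ankrd1 as above, while Crim1 fell (-1.15 ± 0.16), as did Amotl2, Ajuba, Lats2 and Tead1, which lost their calls in plain CPM. In the IGF family 6 of 15 measured genes rose and 3 fell (10 and 2 in plain CPM). The RNA-binding protein gene Igf2bp2 averaged 12.7 ± 0.947 in mdxTG and 1.40 ± 0.131 in WT, a log2 fold of 2.80 ± 0.16, the receptor Igf2r rose by 0.93 ± 0.16 and the binding protein gene Igfbp4 by 1.00 ± 0.13, whereas the insulin receptor substrate Irs2 (-1.07 ± 0.18), Igfbp3 (-1.02 ± 0.16) and the insulin receptor Insr (-0.59 ± 0.11) fell, of which Insr lost its call in plain CPM.

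Genes of energy metabolism were lower from the respiratory chain to glycogen. Of 26 nuclear genes of oxidative phosphorylation 24 fell and 0 rose, with a median log2 fold of -0.61, and in plain CPM 11 fell and 0 rose. Cox6a2, the muscle form of a cytochrome oxidase subunit, had 431, 346, 441 and 396 normalized CPM in mdxTG muscle, against 964, 1239, 720, 814 and 736 in WT muscle, a log2 fold of -1.12 ± 0.15. The mdxTG libraries lay below all WT libraries. The complex I gene Ndufv1 (log2 fold -0.60 ± 0.08), the succinate dehydrogenase gene Sdha (-0.66 ± 0.09) and the ATP synthase gene Atp5a1 (-0.63 ± 0.09) fell too. Of 28 genes of fatty acid oxidation and the TCA cycle 23 fell and 0 rose (11 fell and 1 rose in plain CPM). The medium-chain dehydrogenase gene Acadm had 160, 149.8, 189 and 151 normalized CPM in mdxTG muscle, against 382, 300.3, 357, 335 and 304 in WT muscle, a log2 fold of -1.05 ± 0.09, and lipoprotein lipase (Lpl) had 179.6, 246, 297 and 243 normalized CPM in mdxTG muscle, against 980, 499.9, 645, 647 and 569.9 in WT muscle, a log2 fold of -1.45 ± 0.18. Of the TCA cycle, Fh1 (fumarase; log2 fold -0.70 ± 0.07) and Suclg1 (-0.69 ± 0.08) fell, as did the electron carrier gene Etfa (-0.66 ± 0.08).

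Mitochondrially encoded transcripts took 8.78 to 10.89% of gene reads in mdxTG and 12.73 to 19.15% in WT. Of 12 measured genes 10 fell and 0 rose, and 9 fell in plain CPM. The cytochrome oxidase gene mt-Co1 had 33336, 26342, 36430 and 27514 normalized CPM in mdxTG muscle, against 58425, 80025, 50960, 66927 and 52821 in WT muscle, a log2 fold of -0.99 ± 0.20. The complex I genes mt-Nd1 (log2 fold -1.09 ± 0.20), mt-Nd2 (-1.15 ± 0.17), mt-Nd4 (-0.89 ± 0.19), mt-Nd5 (-1.07 ± 0.13) and mt-Nd6 (-0.95 ± 0.17) fell, as did cytochrome b, mt-Cytb (-0.85 ± 0.20). For these 7 genes the mdxTG and WT libraries did not overlap. The levels of mt-Nd3, mt-Co2, mt-Co3, mt-Atp6 and mt-Atp8, with means of 0.275 to 3.77 in mdxTG and 0.875 to 28.2 in WT, are uncertain because nuclear copies of these genes could share their reads; of these mt-Co3 (-1.49 ± 0.72) and mt-Atp6 (-0.15 ± 0.29) did not pass, and the call of mt-Co2 (-1.19 ± 0.45) was lost without any 1 of WT replicate 2 and mdxTG replicates 1, 2 and 3 (limma adjusted p of 0.0547 to 0.114). Without WT replicate 1, which held the highest WT level, the log2 fold of mt-Co2 was -0.71.

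Glycolysis, glycogen and phosphocreatine genes fell in 21 of 26 cases and rose in 2 (16 and 3 in plain CPM). The AMP deaminase Ampd1, which clears AMP during hard contraction, had 386, 348, 348 and 369 normalized CPM in mdxTG muscle, against 1446, 1115, 1388, 1273 and 1234 in WT muscle, a log2 fold of -1.82 ± 0.09 (adjusted p = 6.86e-10). The insulin-responsive glucose transporter gene Slc2a4 had 259.9, 308, 304 and 271 normalized CPM in mdxTG muscle, against 669.7, 598, 619.8, 632 and 676 in WT muscle, a log2 fold of -1.16 ± 0.08, whereas Slc2a1, the ubiquitous glucose transporter, had 34.2, 42.5, 37.1 and 32.0 normalized CPM in mdxTG muscle, against 10.9, 9.84, 8.21, 10.2 and 12.5 in WT muscle and rose by 1.77 ± 0.13. The 2 transporter genes thus moved in opposite directions, without overlap in either. The phosphorylase kinase gene Phkg1 (log2 fold -1.36 ± 0.09) and the glycerol phosphate dehydrogenase gene Gpd1 (-1.19 ± 0.09) fell. The other member that rose was the glycogen branching enzyme Gbe1.

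The 10 genes with the largest read share took 18.24 to 20.76% of gene reads in mdxTG and 25.19 to 29.67% in WT, with the 10 chosen in each library. They are contractile and energy genes, and all but Acta1 and Myh1 of the 12 had a lower mean share in mdxTG. The share of mt-Co1 averaged 3.51% in mdxTG and 5.41% in WT, that of Ckm, muscle creatine kinase, 1.34% in mdxTG and 1.91% in WT, and that of the calcium pump Atp2a1 1.96% in mdxTG and 2.78% in WT. Tnnt3 averaged 1.23% in mdxTG and 1.81% in WT, and Aldoa 1.15% in mdxTG and 1.52% in WT. The share of Acta1, skeletal alpha-actin, averaged 2.84% in mdxTG and 2.32% in WT, without overlap, and that of Myh1 2% in mdxTG and 1.01% in WT. A read share is free of the authors' scaling factors.

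Metallothioneins, small proteins that bind zinc and copper, held the highest log2 fold among genes with at least 5 normalized CPM in the higher group. Mt3 (chromosome 8, 94152607 to 94154146) had 286, 213, 206 and 239 normalized CPM in mdxTG muscle, against 1.33, 1.47, 1.000, 1.17 and 1.12 in WT muscle, 194-fold the WT mean and a log2 fold of 7.10 ± 0.14 (adjusted p = 2.08e-13). Mt2 (chromosome 8, 94172664 to 94173568) had 227, 193, 205 and 265 normalized CPM in mdxTG muscle, against 5.02, 6.79, 6.23, 5.96 and 7.55 in WT muscle, a log2 fold of 5.03 ± 0.35. Mt1 had 106, 97.1, 127 and 125 normalized CPM in mdxTG muscle, against 11.8, 14.6, 8.29, 9.62 and 11.6 in WT muscle, a log2 fold of 3.31 ± 0.29. All 3 were far higher in every mdxTG library, while Mt4, beside them on chromosome 8, was at 1.03 to 2.77 normalized CPM in mdxTG and had 0 reads in WT, at least 23.2-fold higher against the mean level of 3 reads per WT library. Of 11 measured metallothionein and metal handling genes 6 rose and 1 fell (9 and 1 in plain CPM). The zinc importer Slc39a14 rose by 0.77 ± 0.11 and ferritin light chain Ftl1 by 0.48 ± 0.10, and the iron exporter Slc40a1 fell (-1.61 ± 0.10). Ferritin heavy chain Fth1 (0.32 ± 0.11) rose, but not with only mdxTG and WT in the fit (adjusted p = 0.0503) or without any 1 of WT replicates 3, 4 and 5 and mdxTG replicates 1 and 4 (limma adjusted p of 0.053 to 0.066), and Slc30a1, Slc39a8, Tfrc and Cp did not pass.

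The 250 bases before the RefSeq gene start (GRCm38.p6, plus strand) are shown for Mt2 and Mt3, which lie close together and had the larger rises. Capitals mark the core of the metal response element, TGCACNC or TGCGCNC on either strand, the letters bound by the zinc-sensing factor MTF1. Mt2 held 3 matches, Mt1 and Mt4 1 each and Mt3 0; 21.27% of 27025 promoters held at least 1 and 1.28% at least 3. No match says only that these letters are not in this window.
Mt2 (chr8:94172368-94172617): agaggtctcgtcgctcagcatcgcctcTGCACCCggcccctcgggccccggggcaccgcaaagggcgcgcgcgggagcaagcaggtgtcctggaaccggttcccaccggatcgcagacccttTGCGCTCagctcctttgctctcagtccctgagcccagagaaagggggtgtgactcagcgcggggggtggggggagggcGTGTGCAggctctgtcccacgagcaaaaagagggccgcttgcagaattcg
Mt3 (chr8:94152357-94152606): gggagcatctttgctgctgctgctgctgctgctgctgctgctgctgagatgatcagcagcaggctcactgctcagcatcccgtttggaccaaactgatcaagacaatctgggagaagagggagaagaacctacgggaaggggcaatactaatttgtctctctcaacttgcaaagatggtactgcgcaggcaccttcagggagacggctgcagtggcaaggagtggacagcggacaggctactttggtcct

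Stress-response factors and chaperones mostly rose. Of 24 immediate early genes, which switch on within minutes of a stimulus, 15 rose and 1, Nr4a1, fell (17 and 0 in plain CPM; Nr4a1 not without mdxTG replicate 1, adjusted p = 0.0537). Egr1 had 88.2, 117, 97.6 and 122 normalized CPM in mdxTG muscle, against 7.73, 5.29, 5.05, 5.41 and 6.45 in WT muscle, a log2 fold of 4.05 ± 0.20 (adjusted p = 9.16e-10). The AP-1 subunit Fosl1 had 2.96, 3.65, 3.90 and 3.85 normalized CPM in mdxTG muscle, against 0, 0.0273, 0.105, 0.106 and 0.0199 in WT muscle, a log2 fold of 2.89 ± 0.22. The groups stood clear of each other for both. Egr3 rose by 2.55 ± 0.20, the stress factor Atf3 by 2.38 ± 0.17 and Junb by 2.11 ± 0.15. Among 23 heat shock proteins and cochaperones 17 rose and 5 fell (18 and 3 in plain CPM). The small heat shock protein Hspb7, which guards large cytoskeletal proteins, had 1924, 1874, 1709 and 2058 normalized CPM in mdxTG muscle, against 664, 263, 355, 318 and 399 in WT muscle, a log2 fold of 2.31 ± 0.21. Alpha-B crystallin (Cryab) rose by 1.62 ± 0.16, Hspb8 by 1.57 ± 0.13 and Hspb1 by 1.23 ± 0.13, and the cochaperone Dnajb5 fell (-0.87 ± 0.09). Also lower were the mitochondrial chaperones Hspd1 and Hspe1, the myosin chaperone Unc45b and Hspa1l, of which Hspe1 and Hspa1l lost their calls in plain CPM.

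In the ATF4 and ER stress list 14 of 23 rose and 4 fell (17 and 2 in plain CPM). The serine synthesis gene Psat1 had 9.54, 9.77, 9.84 and 9.65 normalized CPM in mdxTG muscle, against 2.20, 2.45, 2.97, 1.85 and 3.01 in WT muscle, a log2 fold of 1.78 ± 0.11, and the chaperones Hspa5 and Pdia4 of the endoplasmic reticulum rose by 1.02 ± 0.09 and 1.19 ± 0.12. The stress cytokine Gdf15 averaged 1.20 ± 0.261 in mdxTG and 0.107 ± 0.0636 in WT and rose by 1.48 ± 0.15. Herpud1, which helps to degrade misfolded proteins, fell, with a log2 fold of -0.74 ± 0.06. The 4 that fell were Herpud1, Chac1, Atf5 and Atf4 itself, and Atf4 and Atf5 lost their calls in plain CPM. In the list of NRF2 targets and antioxidant genes 8 of 25 rose and 5 fell (18 and 4 in plain CPM). As deposited these shares lay near those of all genes, of which 28.7% rose and 25.3% fell. Sulfiredoxin (Srxn1) had 154, 134, 145 and 140.2 normalized CPM in mdxTG muscle, against 30.6, 30.3, 35.4, 31.6 and 32.8 in WT muscle, a log2 fold of 2.14 ± 0.19, and the pentose phosphate gene Pgd rose by 1.55 ± 0.06, while Me1 (-1.52 ± 0.11), Gstm1 (-1.07 ± 0.08) and the mitochondrial superoxide dismutase Sod2 (-0.99 ± 0.08) fell. Gpx3 fell too, as did Gclc, which lost its call in plain CPM.

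Of 21 atrophy and FoxO genes 8 rose and 6 fell (10 and 5 in plain CPM), shares near the 28.7% and 25.3% of all genes. The autophagy receptor Sqstm1 had 974, 917.6, 943 and 945 normalized CPM in mdxTG muscle, against 577, 577, 554, 536 and 545 in WT muscle, a log2 fold of 0.76 ± 0.07. The glucocorticoid-responsive factor Klf15 (-1.51 ± 0.11), Foxo4 (-1.22 ± 0.08), the autophagy kinase Ulk1 (-1.21 ± 0.11) and Fbxo31 (-0.99 ± 0.07) fell. Of the 2 classical atrophy ligases, named after their values were seen, Trim63 rose (0.99 ± 0.11) and Fbxo32 did not pass (-0.04 ± 0.11).

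Most clock genes fell. Of 19 members 15 fell and 3 rose; in plain CPM 10 fell and 4 rose. Dbp, an output factor driven by the clock, had 56.4, 44.1, 41.6 and 54.5 normalized CPM in mdxTG muscle, against 183, 175, 151, 136 and 143 in WT muscle, a log2 fold of -1.67 ± 0.12. Hlf, a factor of the same family, had 2.83, 3.34, 2.25 and 3.97 normalized CPM in mdxTG muscle, against 23.4, 20.3, 27.8, 23.4 and 29.3 in WT muscle, a log2 fold of -2.83 ± 0.16 (adjusted p = 5.04e-09). No mdxTG library reached the WT range for either gene. The repressors Ciart (log2 fold -2.38 ± 0.14) and Per3 (-1.43 ± 0.10) fell as well. The 3 that rose were Arntl, Clock and Npas2, the activators of the loop, with Npas2 at 5.75 ± 1.19 in mdxTG and 0.621 ± 0.0752 in WT and a log2 fold of 2.46 ± 0.13. No source used here gives the time of day of tissue collection, and its part in these differences was not tested.

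Few genes of the ribosome and the proteasome passed with the authors' scaling. Of 25 cytosolic ribosomal protein genes 1 rose and 1 fell, and of 25 proteasome genes 2 rose and 1 fell, whereas 20 and 22 rose in plain CPM. The exceptions among ribosomal proteins were a pair of paralogs: Rpl3 had 98.3, 95.4, 99.4 and 96.5 normalized CPM in mdxTG muscle, against 42.1, 62.8, 52.1, 46.5 and 54.8 in WT muscle, a log2 fold of 0.92 ± 0.11, and Rpl3l, its striated-muscle form, had 309.9, 273, 335 and 277 normalized CPM in mdxTG muscle, against 499, 572, 423, 481 and 410 in WT muscle, a log2 fold of -0.67 ± 0.10. The members next in order of p, Rpl4 (-0.12 ± 0.11), Rpl19 (0.19 ± 0.13) and Rplp0 (0.14 ± 0.12), did not pass. Ribosomal protein genes have many pseudogene copies, so their levels are uncertain where copies share reads. In the proteasome Psmd11 rose by 0.50 ± 0.08 and Psmd14 by 0.41 ± 0.08, Psma3 fell with a log2 fold of -0.33 ± 0.12, but not in plain CPM or without any 1 of WT replicates 1 and 2 and mdxTG replicates 2 and 4 (limma adjusted p of 0.0619 to 0.0962), and Psma5 and Psma7 did not pass.

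**Figure D4:**
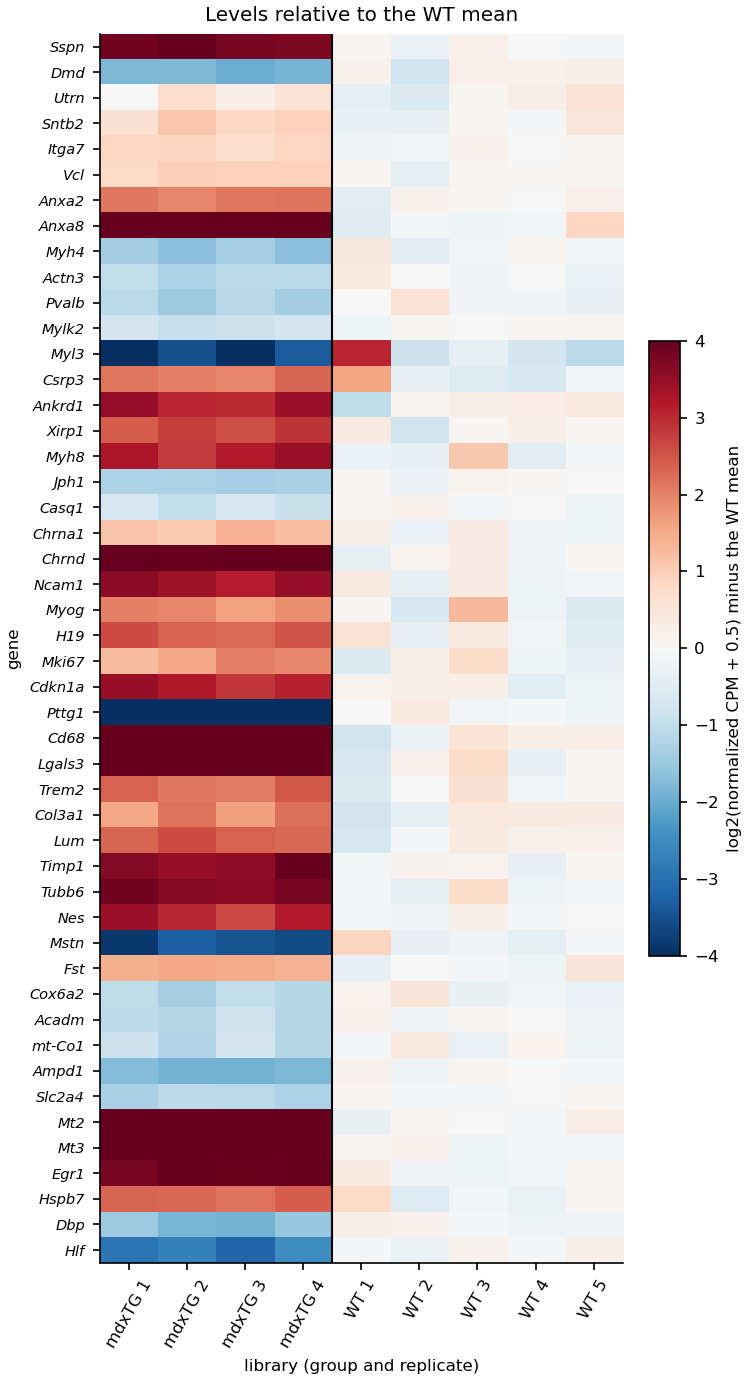
Log2 of (normalized CPM + 0.5) relative to the WT mean for 48 genes of the lists in each library, with mdxTG columns left of WT columns; red is above the WT mean and blue below, and the scale ends at 4 on either side. The mdxTG columns resemble each other, and WT replicate 1 departs from the other WT libraries for Myl3.

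The 15 largest rises, among genes without overlap and with at least 5 normalized CPM in the higher group, ran from 7.10 for Mt3 to 4.14 for Cd68, and 6 of them are described above. The others were led by mesothelin (Msln), a surface glycoprotein, with 135, 85.0, 73.3 and 102 normalized CPM in mdxTG muscle, against 0.531, 1.09, 1.47, 0.530 and 0.498 in WT muscle. Atp13a4, a cation-transporting ATPase, had 53.4, 23.8, 26.5 and 26.5 normalized CPM in mdxTG muscle, against 0.0242, 0, 0.105, 0.0530 and 0.0199 in WT muscle. Both were near the level of single reads or below 2 normalized CPM in WT and well above it in every mdxTG library. Ahnak2, a giant scaffold protein, averaged 284 ± 28.4 in mdxTG and 11.1 ± 2.04 in WT, Atp6v0d2, a subunit of the proton pump of lysosomes, 17.8 ± 1.00 in mdxTG and 0.263 ± 0.174 in WT, and the protease inhibitor Serpinb1a 70.4 ± 10.8 in mdxTG and 3.06 ± 0.468 in WT. Uchl1, a deubiquitinating enzyme of neurons that injured muscle also makes, averaged 69.8 ± 10.2 in mdxTG and 3.20 ± 1.06 in WT. Rrad, a GTPase that restrains calcium channels, averaged 39.5 ± 4.52 in mdxTG and 1.81 ± 1.11 in WT. The extracellular protein Spon2 averaged 34.7 ± 9.46 in mdxTG and 1.44 ± 0.370 in WT and Sprr1a 9.77 ± 1.33 in mdxTG and 0.0421 ± 0.0941 in WT.

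The 15 largest falls ran from -4.95 for Pttg1 to -3.48 for Gm14403. Amd1, an enzyme of polyamine synthesis, had 48.1, 33.5, 56.8 and 41.3 normalized CPM in mdxTG muscle, against 1286, 589.8, 467, 568 and 444 in WT muscle, a log2 fold of -3.79 ± 0.28; it has near-identical copies that could share its reads. Ppp1r1a, an inhibitor of protein phosphatase 1, had 1.69, 1.57, 1.34 and 1.09 normalized CPM in mdxTG muscle, against 49.9, 37.3, 33.8, 27.4 and 21.9 in WT muscle, a log2 fold of -4.12 ± 0.18. Absence of overlap was a condition of entry to these 15 falls. WT replicate 1 had the highest value of both Amd1 and Ppp1r1a. Mettl11b averaged 1.56 ± 0.492 in mdxTG and 28.8 ± 2.94 in WT and Odf3l2 0.616 ± 0.322 in mdxTG and 15.9 ± 10.96 in WT. 2310065F04Rik averaged 6.51 ± 0.729 in mdxTG and 149.7 ± 19.6 in WT.

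A further 14 genes were at no more than 3 reads in every WT library and at 1 normalized CPM or more in every mdxTG library. Among them the complement gene Hc (C5) had 4.17, 3.84, 2.85 and 4.48 normalized CPM in mdxTG muscle, against 0, 0, 0, 0 and 0.0398 in WT muscle, and Cdkn2a, the gene of the tumour suppressors p16 and ARF, had 2.04, 1.24, 1.98 and 2.55 normalized CPM in mdxTG muscle, against 0.0242, 0.0545, 0, 0.0530 and 0 in WT muscle. The glutathione transferase Gsta1 averaged 7.75 ± 2.13 in mdxTG and 0.0214 ± 0.0293 in WT; its neighbour and near-copy Gm3776 also belongs to the set, and their reads could be shared. The membrane protein gene Prom2 averaged 5.87 ± 2.59 in mdxTG and 0.0437 ± 0.0259 in WT, the phospholipase Pla2g2e 2.52 ± 0.419 in mdxTG and 0.00924 ± 0.0129 in WT, the calcium sensor Hpca 2.75 ± 1.51 in mdxTG and 0.0136 ± 0.0212 in WT and the somatostatin receptor Sstr2 2.80 ± 0.620 in mdxTG and 0.00530 ± 0.0119 in WT. The remaining members were Mt4, A630076J17Rik, 4930447F24Rik and 3 pseudogenes, whose values are uncertain because parent genes could share their reads.

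The reverse pattern held for 8 genes, at no more than 3 reads in every mdxTG library and at 1 normalized CPM or more in every WT library, and 7 of these lie on chromosome 2. Between 177183453 and 178034022 on that chromosome (mm10) 7 genes are listed, and all 7 fell. The 2 ends of this stretch are those of the outermost of the 6 neighbours among the 8 (Gm14410, Gm14412, Gm14403, Gm14325, Gm14326 and Zfp971), so the stretch was drawn from the pattern; the other gene in it is Zfp970. Gm14295, one of the 15 largest falls, and Gm14305, named after its values were seen, lie just before it on the chromosome and fell too, with Gm14295 at 0.0418 ± 0.0413 in mdxTG and 6.96 ± 1.64 in WT. These genes belong to a family of zinc finger genes with near-identical members, so their reads could be shared. Zfp970 had 0.0833, 0, 0.0168 and 0.0395 normalized CPM in mdxTG muscle, against 16.1, 14.9, 14.6, 16.2 and 16.9 in WT muscle, with 7 reads in all 4 mdxTG libraries together. Gm14410, Gm14412 and Gm14403 had 0 reads in mdxTG, and Gm14403 was at least 92.1-fold lower against the mean level of 3 reads per mdxTG library. The other 2 of the 8 genes were 1700001O22Rik, elsewhere on chromosome 2, and 9930111J21Rik2 on chromosome 11.

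**Figure D5:**
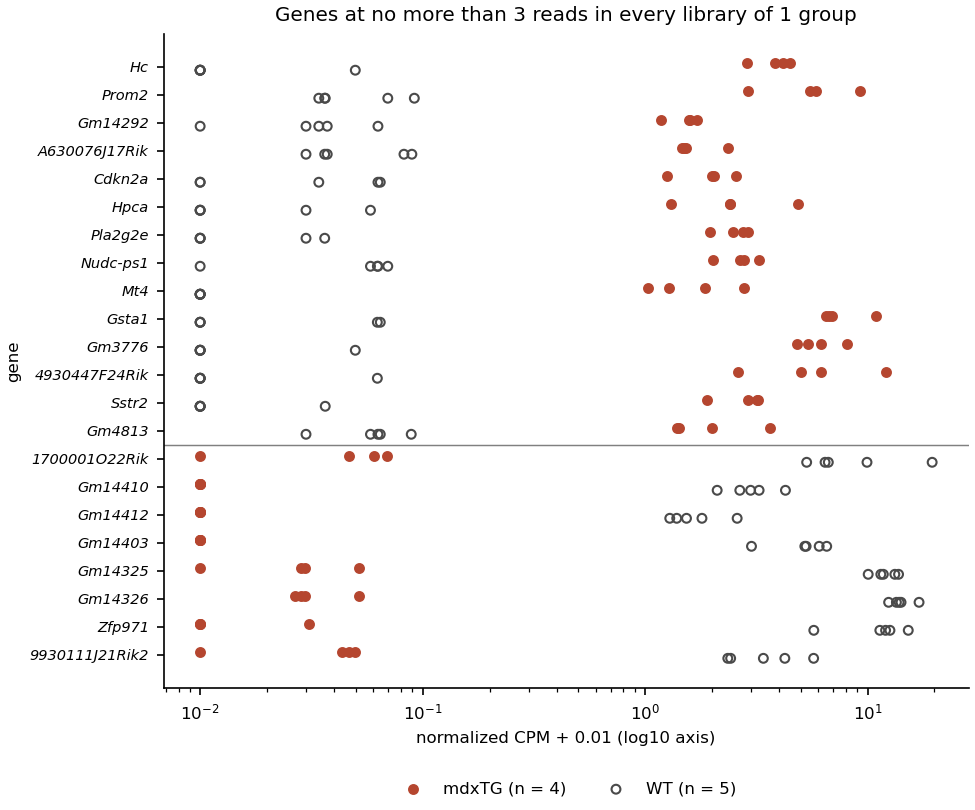
Normalized CPM + 0.01 (log10 axis) in each library of the 14 genes near 0 in WT and the 8 genes near 0 in mdxTG; filled circles are mdxTG libraries and open circles WT libraries. The rule that chose these genes leaves no overlap between the groups.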

How the data were processed

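The authors sequenced polyadenylated RNA of the tibialis anterior with a stranded mRNA kit, per the labels' protocols; bcl2fastq 2.17, STAR and edgeR were used with mm10, per the submitters' processing notes. The sources used here name no versions of STAR and edgeR, no read counter and no annotation. The authors deposited read counts per library, and the fraction mapped uniquely and multiply, and a sheet named CPM with a normalized signal. Its values are whole multiples of 1 step per library (100% within 0.001 reads), so whole reads were recovered for edgeR and DESeq2. The authors' deposited table gives log2 fold changes with p-value, adjusted p-value, its −log10 and an F score.

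limma 3.58.1 (R 4.3.3, trend) was fitted to log2(normalized CPM + 0.5) of all 13 libraries with 1 mean per genotype, and mdxTG minus WT was drawn from it. The mdx libraries add to the spread estimate and count among the 13 libraries of the filter. A gene below 0.5 normalized CPM throughout 1 group was tested only through the others, and the filter favours a difference in such a gene. A gene was tested where at least 4 libraries had 0.5 normalized CPM (13831 of 13846 genes), two-sided, at 0.05. Alternatives used edgeR 4.0.16 (quasi-likelihood) and DESeq2 1.42.0. In simulated counts for this comparison (13678 genes fitted) limma recovered 50.7% of 1.5-fold, 79.1% of 2-fold and 98.5% of 4-fold changes. Between mdxTG and WT only 67, 67 and 66 genes were changed by these folds. There 160 genes were called, against 7468 in the data. With fewer calls the Benjamini-Hochberg cutoff is stricter, so these shares do not carry over to the data.

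There were 42 gene lists with 776 memberships; lists and members were chosen with earlier results of these data known, and no set test was run. Named genes were Sspn, Dmd and Utrn, the 15 largest rises and falls without overlap and with at least 5 normalized CPM in the higher group, the 5 members of smallest p of each list (all of lists of up to 12), genes at no more than 3 reads in 1 group, and the genes of largest read share. List members that rose, fell or did not pass where 5 or fewer did were named after their values were seen. A few members counted in the lists are not reported here by name. Coordinates are from GENCODE M21 (mm10), matched by symbol for 98.9% of genes; promoters are from RefSeq (GRCm38.p6).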

Additional observations from a re-analysis of the deposited data

Results flagged for a closer look

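For 61 of 660 groups of named genes, 1 library lay farther from the rest of its group than Dixon's 95% limit allows. Chance alone flags about 1 group in 20 where values are normally distributed. That rate does not hold for low counts: where all other libraries are at 0, as for Hc in WT, any value above 0 is flagged. Values below are the normalized CPM of the flagged library.

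WT replicate 1 stood high for the slow-fibre and stretch genes Myl2 (856), Myl3 (753), Myoz2 (302), Csrp3 (116), Ankrd2 (168) and Sln (11.7), and for Amd1 (1286), Mstn (80.5), Ncmap (4.06) and mt-Co2 (26.6). It stood low for Ajuba (4.40), Bmp4 (5.07), H2-Eb1 (15.5) and Kcnj8 (15.7).

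WT replicate 2 stood low for genes of the membrane and cytoskeleton, Dmd (124), Flnc (455) and Vcl (94.3), and for Hspa5 (137), Psmd11 (78.3), Insr (99.8), Tead1 (198) and Tead4 (4.85). It stood high for Pvalb (14340), Fabp4 (269), Chrnb1 (40.8), Cldn5 (13.5), Cnn1 (4.42) and Ccl5 (0.464).

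WT replicate 3 stood high for genes of regenerating fibres, with Myh3 at 39.2, Myh8 at 10.8, Myog at 9.94, Mymk at 3.81, Tnnt2 at 9.13 and Chrng at 2.92, and for Tubb6 (24.3), Top2a (1.87), Sprr1a (0.210) and 4930447F24Rik (0.0526). Without this library Mymk had a log2 fold of 3.10 and Myog of 2.18.

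Lone high values elsewhere in WT were Ifit1 (3.39) and Sstr2 (0.0265) in replicate 4, and Anxa8 (5.54), Lep (6.29), mt-Co3 (117), Hc (0.0398) and Gm3776 (0.0398) in replicate 5. In mdxTG replicate 1, Atp13a4 (53.4), Gsta1 (10.9), Psmd11 (141), A630076J17Rik (2.35), Gm14326 (0.0417) and Zfp971 (0.0208) stood high, and Lipe (22.6) and 9930111J21Rik2 (0) low. The others were Lep (3.53, high) and Rpl19 (69.6, low) in mdxTG replicate 2, Atp5a1 (1818), Cidec (10.1), Gm14305 (0.218) and Tfrc (412, all high) in replicate 3, and Mymk (6.20, high) and Slc39a8 (0.927, low) in replicate 4.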

How the results depend on the processing

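Under 22 other settings, 220 of the 264 named genes that had passed kept direction and call in every setting that gave them a value. Many named genes were chosen for a small p or a large fold in these same data. Their stability was favoured by that choice and does not stand for all genes called. Plain CPM changed most: 7916 genes rose and 1181 fell, and named genes whose log2 fold turned positive were Abcc9 (0.022), Acta1 (0.29), Acta2 (0.21), Anxa3 (0.015), Ccl11 (0.085), Cdh5 (0.21), Cnn1 (0.051), Cpa3 (0.33), Dpp4 (0.16), Egfl7 (0.041), Emcn (0.29), Fabp4 (0.18), Fbxo32 (0.34), Gclc (0.057), Gsn (0.36), Kcnj8 (0.24), Kit (0.0033), Lats2 (0.048), Lipe (0.24), Myf5 (0.077), Myl1 (0.015), Notch3 (0.0049), Nrap (0.32), Pecam1 (0.058), Pmp22 (0.14), Psma3 (0.046), Rgs5 (0.084), Rpl4 (0.25), Tek (0.025), Tie1 (0.089), Tuba4a (0.026) and mt-Atp6 (0.18). Without WT replicates 1 and 2 together the sign turned for Acta1 (0.0092), Cd163 (-0.51), Chad (-0.50), Cidec (-0.092), Cma1 (-0.0059), Comp (-0.41), Fbxo32 (0.041), Fmod (-0.37), Kdr (-0.045), Kera (-0.40), Lep (-0.0056), Mcpt4 (-0.14), Myod1 (-0.16), Pmp22 (0.10), Rpl4 (0.032) and mt-Atp6 (0.028), DESeq2 turned Mcpt4 (-0.019), Cd163 (-0.080) and Cidec (-0.068), edgeR turned Cd163 and Cidec (-0.064 and -0.050), median-ratio scaling turned Cd163 (-0.0092), and a pseudocount of 0.1 turned Cpa3 (0.012). With 1 library left out, 3563 to 4103 genes rose, 3045 to 3716 fell and 6608 to 7819 changed in all; log2 folds ran from 3.80 to 3.92 for Sspn, -2.06 to -1.80 for Dmd and 0.23 to 0.52 for Utrn, and the sign turned at least once for Cd163 (-0.25 to 0.27), Chad (-0.14 to 0.67), Cidec (-0.12 to 0.17), Cma1 (-0.022 to 0.28), Comp (-0.17 to 0.61), Cpa3 (-0.31 to 0.17), Fbxo32 (-0.11 to 0.045), Fmod (-0.038 to 0.73), Gsn (-0.15 to 0.14), Kera (-0.088 to 0.53), Mcpt4 (-0.18 to 0.16), Mylpf (-0.038 to 0.15), Myod1 (-0.033 to 0.30), Nrap (-0.19 to 0.012) and mt-Atp6 (-0.44 to 0.19). Utrn passed in plain CPM (0.75). The causes were not tested. Counts were 3930 rises and 3564 falls with edgeR, 3897 and 3909 with DESeq2, and 2847 and 3001 with a filter of 5 normalized CPM.

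Replicate numbers carry no stated pairing, and same-numbered libraries did not deviate together (correlations 0.24, -0.47, -0.17 and 0.10). With the number as a replicate block, Utrn passed (0.52, both with all 13 libraries and with mdxTG and WT alone), Gsn (0.12), Cpa3 (0.16) and Mylpf (-0.038) changed sign, and 4089 genes rose and 3467 fell with all libraries, or 3463 and 2779 with mdxTG and WT alone. Depth limits genes near the level of 3 reads, 0.0504 to 0.0625 normalized CPM in mdxTG and 0.0597 to 0.0818 in WT.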

Other observations

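By chromosome, 159 of 446 genes tested on chromosome X rose and 77 fell in mdxTG muscle relative to WT muscle, with a median log2 fold of 0.15, while the medians of the autosomes lay between -0.04 and 0.05. On the mitochondrial chromosome 18 of 20 genes fell and 0 rose. By the annotation's gene class, 3760 of 12709 protein-coding genes rose and 3178 fell. Among long non-coding classes 47 of 244 lincRNA genes rose and 81 fell, 37 of 195 antisense genes rose and 65 fell, and 11 of 110 genes of the class TEC (transcripts still to be checked by experiment) rose and 38 fell. These counts stand beside 28.7% of all genes that rose and 25.3% that fell. They use the authors' scaling, no difference between chromosomes or classes was tested, and the groupings were chosen after the data were seen.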
